A study of Mus musculus with 6 samples.

Results

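The circadian clock genes examined here are Per1, Per2, Per3, Cry1, Cry2, Dbp, Tef, Nr1d1, Nr1d2 and Arntl. They were chosen by name, and all 10 were found among the 34745 genes of the expression table and had enough counts to be tested. The libraries were made from RNA of primary renal fibroblasts of mice with genotype WT, grown out of digested kidney. There were 3 libraries of fibroblasts cultured alone, with the treatment label none, and 3 libraries of fibroblasts kept for 24 h in co-culture with Th17 cells, helper T cells that make interleukin-17. The Th17 cells had been induced from CD4+ T cells with IL-1β, IL-6, IL-23 and an antibody against IFN-γ on plates coated with antibodies to CD3 and CD28. They were kept apart from the fibroblasts by an insert with pores of 0.4 μm, set in place after 6 h of attachment, and only the fibroblasts below were collected. The study's methods name Balb/c as the strain of its mice. Sex and age of the mice, and whether replicates are separate cultures or animals, are not given in the sources used here, so every error and p-value covers only the variation seen among these libraries, which may be technical. Whether lone fibroblasts received an empty insert, and at what hour of the day or after which medium change cells were collected, is likewise not given.

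Nearly all mammalian cells, fibroblasts included, run a clock of interlocked transcription loops. The proteins CLOCK and BMAL1 (the product of Arntl, also called Bmal1) bind E-boxes and switch on Per, Cry, Nr1d and Dbp genes, and PER and CRY proteins then shut CLOCK and BMAL1 off. In a second loop, the REV-ERB proteins made from Nr1d1 and Nr1d2 repress Arntl, Npas2 and other genes through ROR elements, which ROR proteins activate. In a running clock, Arntl transcripts peak when those of Nr1d1 and Dbp are low. Serum, glucocorticoids and cAMP can reset cultured fibroblast clocks. In bulk RNA from many cells, and with 1 collection time per group, a shift in phase, a change in amplitude and a change in mean level cannot be told apart, and neither can fewer cells of a type and less RNA per cell.

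The elements that define these loops were looked for in promoter windows from RefSeq on mouse build GRCm38.p6, reaching from 250 bases before a transcript start to 50 bases after it. The stretches below are shown because they hold the elements through which the factors of these loops, and DBP and TEF downstream of them, are known to act. A match of letters does not by itself place a gene in a loop. All read 5′ to 3′ on the gene's strand, with matches in capitals: CACGTG for the E-box, CACGTT or its reverse complement AACGTG for a weaker variant called the E′-box, TTATGTAA for the D-box that DBP and TEF bind, and TAGGTCA for the ROR element.
Nr1d1, chr11:98775378-98775437, minus strand: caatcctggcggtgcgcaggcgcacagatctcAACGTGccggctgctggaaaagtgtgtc
Cry2, chr2:92434206-92434265, minus strand: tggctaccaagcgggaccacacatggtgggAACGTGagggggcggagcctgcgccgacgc
Cry1, chr10:85185090-85185149, minus strand: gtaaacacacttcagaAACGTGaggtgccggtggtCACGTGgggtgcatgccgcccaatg
Per3, chr4:151044806-151044880, minus strand: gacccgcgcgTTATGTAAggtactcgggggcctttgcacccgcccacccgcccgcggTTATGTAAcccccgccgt
Arntl, chr7:113207531-113207557, plus strand: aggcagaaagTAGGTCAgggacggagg
Ciart, chr3:95882259-95882288, minus strand: ggCACGTGcagaaccgCACGTGtctgggag

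Of the 9 clock genes with a window, all but Per2, an E-box (CACGTG, which is its own reverse complement) was found for Per1, Tef and Cry1, and an E′-box for Nr1d1, Cry1 and Cry2 with both strands searched and no match overlapping another. A D-box (TTATGTAA or TTACGTAA) was found for Per3 alone, with matches that begin at positions −205 and −158 from its start. A ROR element (TAGGTCA or TGGGTCA) was found for Arntl alone, at position 30 after 1 of its annotated starts, inside an annotated exon. Dbp and Nr1d2 had no match, which says only that these letters are not in these windows. Across all 32851 windows, 7.15% held the E-box, 4.68% the E′-box, 1.06% the D-box and 6.45% the ROR element. These shares are per window, whereas the matches above are given per gene, and Per1, Tef and Arntl each had 2 windows.

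Of the 10 clock genes, Nr1d1, Nr1d2, Dbp and Cry2 rose with Th17 cells, Cry1 fell, and Per1, Per2, Per3, Tef and Arntl did not pass an adjusted p of 0.05 (edgeR's quasi-likelihood test, Benjamini-Hochberg adjustment over the 13088 genes tested). The share of all genes past that threshold was 37.1%, with 17.1% higher and 20% lower, beside 4 higher and 1 lower of these 10, so the number of calls alone does not set the clock genes apart. Adding the study's limit of a fold change above 2 left Nr1d1 and Dbp, both higher, where the background was 11.6%, with 3.87% higher and 7.78% lower. The median log2 fold change of the 10 genes was 0.26, beside 0.004 over all genes tested. The normalised read count (CPM, library totals scaled by TMM factors) did not overlap between the groups for 6 of the 10 genes, beside 50.4% of all genes. Of these, 5 were higher and 1 lower, beside 24.3% and 26.1%.

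**Figure D1:**
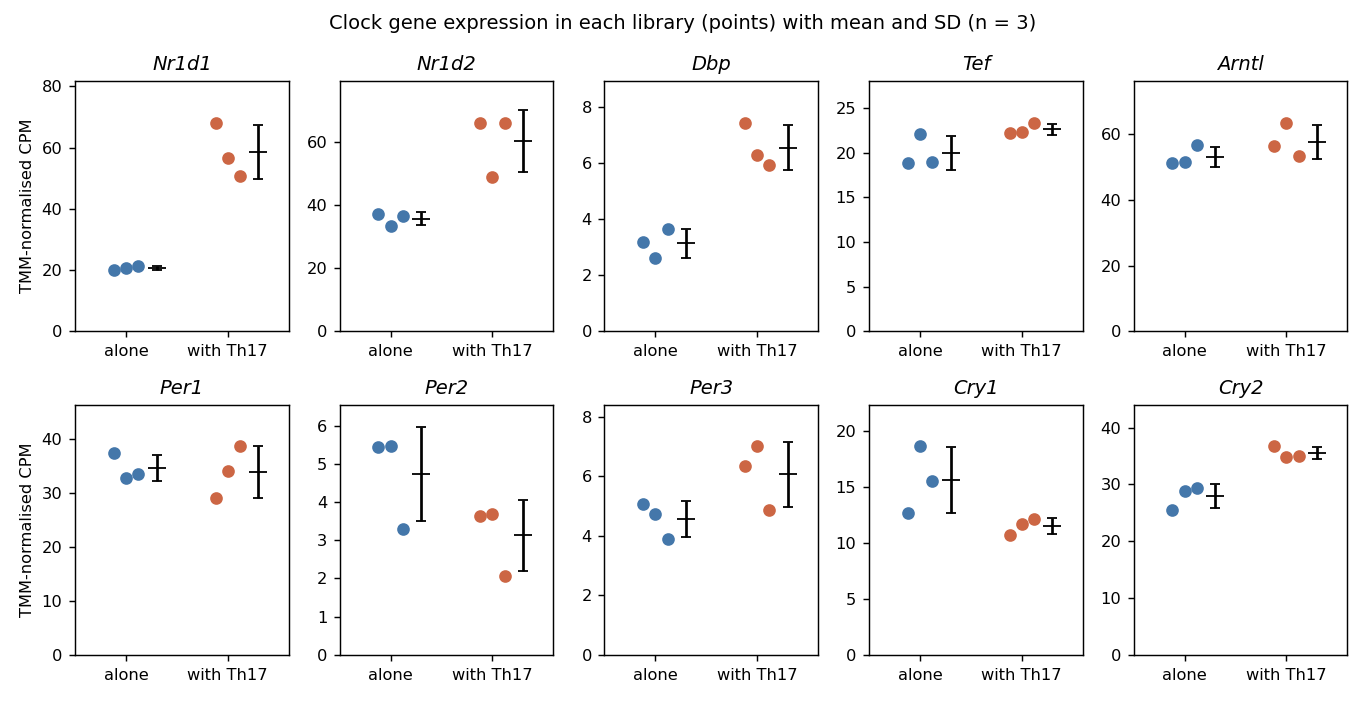
TMM-normalised CPM of the 10 clock genes in each library, on axes that start at 0, for fibroblasts alone (blue points) and with Th17 cells (orange points), with the mean and SD of each group beside them (n = 3). Nr1d1, Nr1d2 and Dbp are higher in every cocultured library than in any lone one, whereas the groups overlap for Arntl, Per1, Per2 and Per3.

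The REV-ERB genes had the lowest adjusted p-values of the 10. Nr1d1 (ENSMUSG00000020889, chromosome 11, 98767932 to 98775333, minus strand, protein-coding) encodes REV-ERBα, a nuclear receptor that represses transcription. It had 20.1, 20.7 and 21.4 CPM in lone fibroblasts and 68.1, 56.6 and 50.6 CPM in cocultured fibroblasts. The lone libraries lay close together and each cocultured library was far above them. The 2.82-fold increase corresponded to a log2 fold change of 1.49 (edgeR adjusted p = 1.11e-05, SE 0.116), higher than 97.9% of all genes tested. Nr1d1 overlaps the thyroid hormone receptor gene Thra on the opposite strand by 263 exonic bases, and whether counting distinguished the strands is not given in the sources used here. Thra fell, from 48.6 ± 2.13 to 39.0 ± 2.06 CPM (n = 3, SD), opposite in direction to Nr1d1. Its log2 fold change was −0.32 (edgeR adjusted p = 0.0112, SE 0.078). The share of Nr1d1 counts that came from Thra was not tested.

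Nr1d2 (ENSMUSG00000021775, chromosome 14, 18204054 to 18239127, minus strand, protein-coding) encodes the paralog REV-ERBβ. Its CPM values were 37.1, 33.4 and 36.7 alone and 66.2, 49.1 and 66.0 with Th17 cells. Cocultured replicate 2 was the lowest of its group and still above all lone libraries. The log2 fold change was 0.76 (edgeR adjusted p = 0.00114, SE 0.122), a 1.69-fold increase. The ratio of Nr1d1 to Nr1d2 by deposited FPKM (fragments per unit of gene length and library total) was 0.904, 1.03 and 0.973 alone and 1.72, 1.93 and 1.28 with Th17 cells, so the balance between the paralogs moved toward Nr1d1 in each cocultured library.

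Among the D-box factors, which carry clock timing to output genes, Dbp changed and Tef did not pass the test. Dbp (ENSMUSG00000059824, chromosome 7, 45705088 to 45710155, plus strand, protein-coding) had 41, 33 and 43 counts alone and 100, 80 and 78 counts with Th17 cells. Each cocultured library had more than any lone one, and mean expression rose from 3.14 ± 0.516 to 6.56 ± 0.786 CPM (SD, n = 3 each). The log2 fold change was 1.06 (edgeR adjusted p = 0.00218, SE 0.191). Its value was close to the limit of 2-fold, which it missed without lone replicate 2 (0.945) or without cocultured replicate 1 (0.961). Dbp overlaps Sphk2, a sphingosine kinase gene, on the opposite strand by 539 exonic bases, and Sphk2 rose as well, from 28.6 ± 4.81 to 41.6 ± 1.82 CPM (edgeR adjusted p = 0.00637 for a log2 fold change of 0.54, SE 0.119). The share of Dbp counts that came from Sphk2 was not tested.

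Tef (ENSMUSG00000022389, chromosome 15, 81802421 to 81826861, plus strand, protein-coding), a relative of Dbp that binds the same element, had 18.9, 22.1 and 19.0 CPM alone and 22.2, 22.3 and 23.4 CPM with Th17 cells. The groups did not overlap, but only by a narrow margin, and the log2 fold change of 0.18 (95% interval −0.05 to 0.41) did not pass the test (edgeR adjusted p = 0.206). The ratio of Dbp to Tef by FPKM rose from between 0.312 and 0.508 alone to between 0.673 and 0.888 with Th17 cells. Hlf, the third factor of this family, had at most 9 counts in a library and was not tested.

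The PER and CRY repressors did not move together. Cry2 (ENSMUSG00000068742, chromosome 2, 92403646 to 92434043, minus strand, protein-coding) had 25.6, 28.9 and 29.4 CPM alone and 36.7, 34.8 and 35.0 CPM with Th17 cells. The groups were apart, with a log2 fold change of 0.35 (edgeR adjusted p = 0.0133, SE 0.088). Without lone replicate 1 the adjusted p was 0.0549. Cry1 (ENSMUSG00000020038, chromosome 10, 85131702 to 85185054, minus strand, protein-coding) went the other way, with 12.7, 18.7 and 15.6 CPM alone and 10.7, 11.7 and 12.2 CPM with Th17 cells. The lone libraries were widely spread and the lowest of them lay just above the highest cocultured one. The log2 fold change of −0.44 (edgeR adjusted p = 0.0489, SE 0.152) lay at the threshold, and 11 of 14 alternatives, DESeq2 among them (adjusted p = 0.0575), put it on the other side. Leaving out any 1 library but lone replicate 1 was among these, with adjusted p from 0.0609 to 0.195.

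The balance of these cryptochromes moved from Cry1 toward Cry2, although the call of Cry1 lay at the threshold. The Cry1 to Cry2 ratio by FPKM was 1.14, 1.48 and 1.21 in lone fibroblasts and 0.669, 0.772 and 0.798 in cocultured fibroblasts. By the lengths behind these FPKM values, Cry1 exceeded Cry2 in all 3 lone libraries and Cry2 exceeded Cry1 in all 3 cocultured libraries. This ratio needs no scaling between libraries, although its size relative to 1 depends on the gene lengths that the authors used. Per kilobase of annotated exon, lone fibroblasts had 4.69 ± 0.887 CPM of Cry1 and 4.42 ± 0.327 CPM of Cry2 (SD), a difference smaller than the SD of Cry1. Whether Cry1 exceeded Cry2 in each lone library thus rests on the length used, while the lower ratio with Th17 cells does not.

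No change was detected for the period genes. Per1 (ENSMUSG00000020893, chromosome 11, 69095217 to 69109960, plus strand, protein-coding), the member that hormones and cAMP induce most directly, had 37.5, 32.9 and 33.6 CPM alone and 29.0, 34.0 and 38.7 CPM with Th17 cells. The cocultured libraries spanned the whole lone range, and the log2 fold change was −0.03 (95% interval −0.29 to 0.23, edgeR adjusted p = 0.858). Its sign depended on the scaling.

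Per2 (ENSMUSG00000055866, chromosome 1, 91415982 to 91459324, minus strand, protein-coding) had 70, 69 and 39 counts alone and 49, 47 and 27 counts with Th17 cells. Replicate 3 was the lowest library of each group, so the groups overlapped. The log2 fold change was −0.60 (95% interval −1.24 to 0.05, edgeR adjusted p = 0.134).

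Per3 (ENSMUSG00000028957, chromosome 4, 151003652 to 151044665, minus strand, protein-coding), whose promoter window held both D-boxes printed above, had 65, 60 and 46 counts alone and 85, 89 and 64 counts with Th17 cells. Cocultured replicate 3 overlapped the lone libraries. The log2 fold change was 0.41 (95% interval −0.03 to 0.85, edgeR adjusted p = 0.133), and without cocultured replicate 3 it was 0.54 with an adjusted p of 0.047. At these counts a change of the size seen for Cry2 could not be resolved for Per2 or Per3. The ratio of Per3 to Per2 by FPKM was 0.432, 0.404 and 0.548 alone and 0.807, 0.881 and 1.10 with Th17 cells. The groups were apart for this ratio, which was not tested, though not for either gene. For the ratio of Per1 to Per2 the groups overlapped, with 4.93, 4.31 and 7.28 alone and 5.69, 6.59 and 13.45 with Th17 cells. Of all single genes tested, 50.4% did not overlap between the groups, and the share among ratios was not determined.

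Arntl (ENSMUSG00000055116, chromosome 7, 113207465 to 113314122, plus strand, protein-coding) stands for the activator arm. Its CPM values were 51.1, 51.5 and 56.6 alone and 56.3, 63.5 and 53.4 with Th17 cells. The groups overlapped, and the log2 fold change was 0.12 (SE 0.088, 95% interval −0.08 to 0.32, edgeR adjusted p = 0.315). The interval admits a decrease of at most 0.08 on the log2 scale and an increase of at most 0.32. Under the 14 alternatives the value ranged from 0.05 to 0.19, with no call and no change of sign.

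Between Arntl and the E-box arm, opposite movement was not detected in these libraries. Nr1d1, Nr1d2 and Dbp rose while no fall of Arntl was detected, and the remaining genes of the E-box arm lay on both sides of 0. The median log2 fold change of the 9 genes other than Arntl was 0.35, and Arntl differed from it by −0.22. Taken within each library, the level of Arntl minus the median of the 9 genes, each centred on its mean, had an SD of 0.146 among libraries of a group. This SD describes single libraries and is not the standard error of the −0.22. On log2(FPKM + 1) values the difference was 0.024, of opposite sign, with the median of the 9 genes at 0.15 and Arntl at 0.174. Adding 1 compresses changes of genes with low FPKM more than those of Arntl, so this value does not compare the arms on equal terms. The other activator genes did not move as a group. Npas2 fell by 1.88 on the log2 scale, opposite to Nr1d1, Nr1d2 and Dbp, with 3, 23 and 8 counts in the cocultured libraries. Clock rose by 0.48, whereas Arntl2, at 0.18, was near Arntl and did not pass (edgeR adjusted p = 0.466). Npas2, Clock and Arntl2 are described further on with the wider clock.

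The relation to Arntl within each library is free of scaling between libraries. The FPKM of Nr1d1 was 0.326, 0.334 and 0.314 times that of Arntl in lone fibroblasts and 1.002, 0.739 and 0.787 times in cocultured ones. On the log2 scale this ratio increased by 1.36, that of Dbp by 0.95 and that of Nr1d2 by 0.62, and in each case the groups did not overlap. Cry1 decreased relative to Arntl by 0.55, also without overlap. For Per1, Per2, Per3, Cry2 and Tef the ratio overlapped between the groups, with differences from −0.73 for Per2 to 0.28 for Per3.

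**Figure D2:**
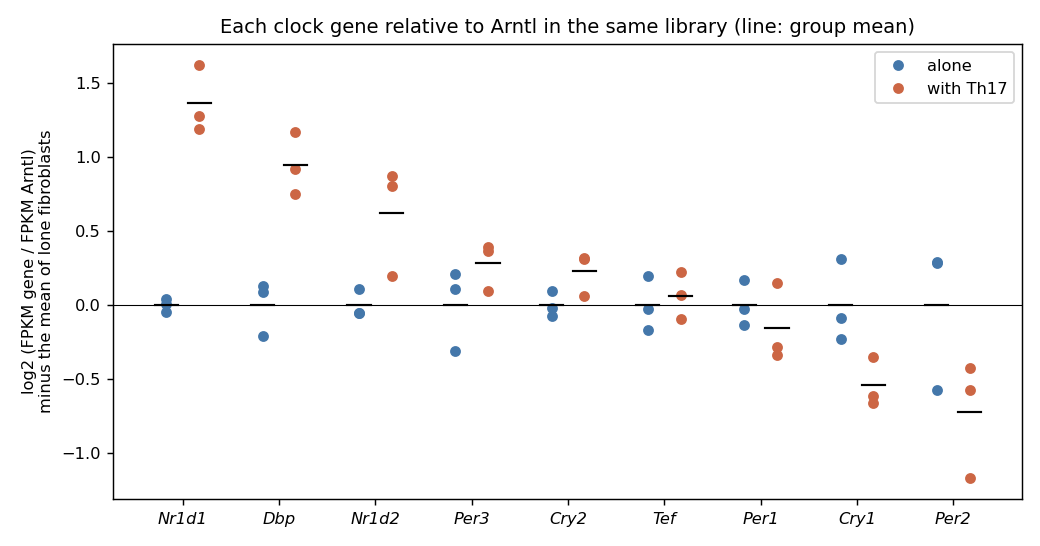
Log2 ratio of the deposited FPKM of each of the other 9 clock genes to that of Arntl in the same library, with the mean of lone fibroblasts subtracted, for lone (blue) and cocultured (orange) libraries, with a line at each group mean. Nr1d1, Dbp and Nr1d2 lie above all lone libraries with Th17 cells and Cry1 lies below, while the other 5 genes overlap.

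Compared per gene length by deposited FPKM, the clock genes of lone fibroblasts ranged from 17.9 ± 1.09 for Arntl to 0.351 ± 0.0451 for Per3 (SD, n = 3). Nr1d2, Nr1d1, Cry1, Per1 and Cry2 followed Arntl in this order, and each overlapped its neighbour in the order. Tef, at 1.47 ± 0.136, stood apart from its neighbours, Per2 and Dbp overlapped, and Per3 was lowest. With Th17 cells Nr1d1 reached 17.04 ± 2.56 and overlapped Arntl at 20.3 ± 1.70, whereas Nr1d2, Cry2, Tef and Dbp each stood apart from the genes next in order, and Per1 overlapped Cry1 and Per2 overlapped Per3. The lengths implied by the FPKM values differ from the annotated exons, for Arntl at about 2904 bases against 7523 exonic bases and for Tef at 13327 to 13335 against 7867. Per kilobase of annotated exon, Arntl had 7.05 ± 0.409 CPM alone, beside 6.74 ± 0.21 for Nr1d1, and with Th17 cells Nr1d1 was the highest at 19.0 ± 2.88 and Arntl the third at 7.68 ± 0.694. The rank of Arntl thus rests on the length used, while changes within a gene do not.

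**Figure D3:**
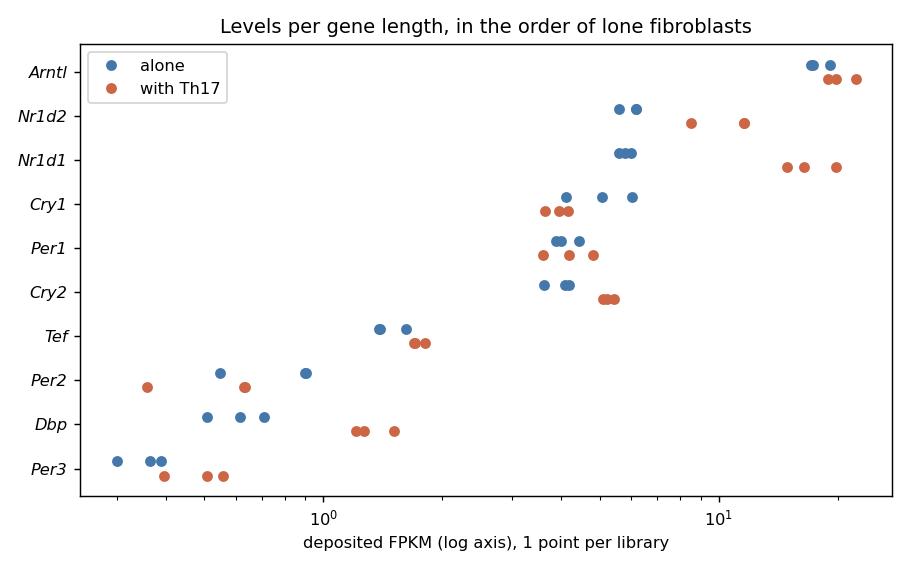
Deposited FPKM of the 10 clock genes on a log axis, with 1 point per library, for lone (blue) and cocultured (orange) fibroblasts, ordered by the mean of lone fibroblasts. With Th17 cells Nr1d1 moves up into the range of Arntl and Dbp moves above Per2, while Arntl and Per1 stay within overlapping ranges.

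To place these genes in the wider clock, 20 further clock genes were examined, of which 16 were tested. Of these, Clock and Csnk1e rose and Npas2, Ciart and Timeless fell, so 5 of 16 passed the test, beside the background of 37.1%. Clock, the partner of BMAL1, had 717, 620 and 549 counts alone and 982, 894 and 888 counts with Th17 cells, with no overlap. Its log2 fold change was 0.48 (edgeR adjusted p = 0.00201, SE 0.085). Npas2, a paralog of Clock that can replace it, fell from 41, 47 and 33 counts to 3, 23 and 8 counts. The cocultured libraries of Npas2 were widely spread, the log2 fold change was −1.88 (edgeR adjusted p = 0.0176, SE 0.509), and without cocultured replicate 2 it was −2.93. Without lone replicate 2 or cocultured replicate 3 the adjusted p was 0.0585 or 0.0524. Arntl2, a paralog of Arntl, was at 0.18 (adjusted p = 0.466), since it was high in cocultured replicate 3 alone.

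Ciart, which encodes CHRONO, a repressor of CLOCK and BMAL1, is a known E-box gene, and its window held 3 E-boxes, of which the nearer pair is printed above. It had 70, 101 and 92 counts alone and 38, 42 and 24 counts with Th17 cells. All cocultured libraries were lower than all lone libraries, with a log2 fold change of −1.41 (edgeR adjusted p = 0.00208, SE 0.252), opposite in direction to Nr1d1 and Dbp. The other repressors of this group, Bhlhe40 (−0.10, adjusted p = 0.245) and Bhlhe41, did not pass. In the nuclear receptor loop, Rora, an activator of Arntl, had 54.8, 22.6 and 50.3 CPM alone and 53.1, 51.8 and 52.5 CPM with Th17 cells. Lone replicate 2 was far below the other libraries, and without it the log2 fold change moved from 0.30 to −0.001. Rorb, with at most 16 counts in a library, was not tested. Nfil3, a repressor at D-boxes that REV-ERB proteins control, was at −0.15 (adjusted p = 0.117).

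Of 9 genes that modify or degrade clock proteins or, like Timeless, were listed with them, 8 were tested. Csnk1e, a kinase of PER proteins, rose by 0.24 on the log2 scale (edgeR adjusted p = 0.0242, SE 0.07), and it was not called without lone replicate 1 or 3 or without cocultured replicate 1 or 2. Timeless, which in mammals also acts at DNA replication forks, fell from 12.9 ± 1.25 to 7.31 ± 0.906 CPM (n = 3, SD; edgeR adjusted p = 0.00196 for a log2 fold change of −0.82, SE 0.144). The kinases Csnk1d, Csnk2a1 and Gsk3b and the ubiquitin ligase genes Btrc and Fbxw11 did not pass.

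**Figure D4:**
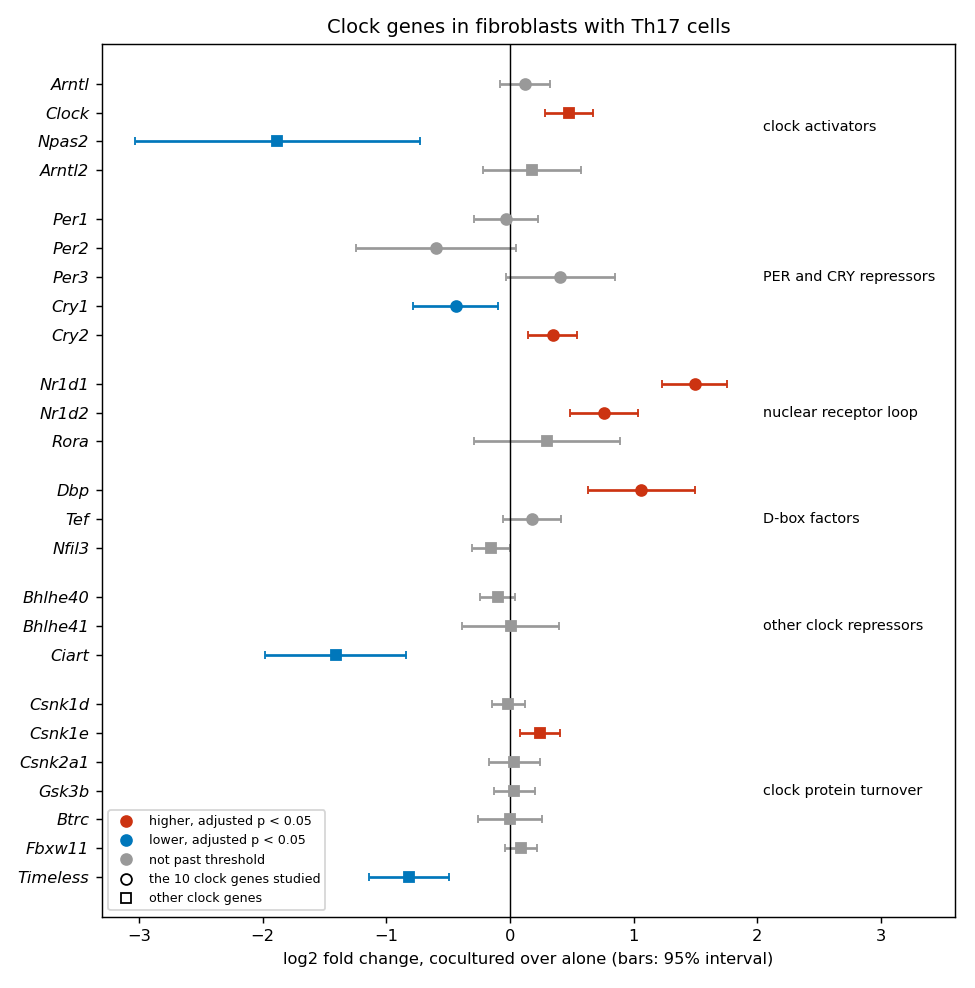
Log2 fold change of cocultured over lone fibroblasts with its 95% interval (edgeR) for the 10 clock genes (circles) and other clock genes tested (squares), grouped by role. Red marks genes higher and blue genes lower at an adjusted p below 0.05, grey the rest. Each of the groups other than the nuclear receptor loop, the D-box factors and the other clock repressors holds both higher and lower genes.

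Genes that lie downstream of the clock, or that respond to signals able to reset it, were examined from 3 lists. Of 7 output genes, 6 were tested, with 3 higher and 1 lower, beside 17.1% higher and 20% lower of all genes. Por and Alas1, enzymes of electron transfer and heme synthesis, rose by 0.45 and 0.40 on the log2 scale (edgeR adjusted p = 0.00306 and 0.00187). Cdkn1a rose by 0.16 (adjusted p = 0.0354), a call lost under 8 of 14 alternatives. Nampt, the enzyme that makes a precursor of NAD, fell from 251 ± 6.52 to 128 ± 2.57 CPM (n = 3, SD; edgeR adjusted p = 1.61e-06 for a log2 fold change of −0.98, SE 0.057).

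Of 10 genes that glucocorticoids induce, 9 were tested, with 3 higher and 1 lower, so 4 of 9 were called beside 37.1% of all genes. Errfi1, at 0.66, Lcn2, at 2.07, and Cebpd, at 0.41, were higher (edgeR adjusted p = 3.77e-05, 1.18e-05 and 0.0404), and Lcn2 and Cebpd are also known to respond to interleukin-17. Cebpd was not called without lone replicate 1 or 2 or without cocultured replicate 2 or 3, with log2 fold changes from 0.26 to 0.46. The other 5 genes tested did not pass. Among them, Fkbp5 and Tsc22d3 had log2 fold changes of −0.02 and −0.04 (edgeR adjusted p = 0.913 and 0.768), with a sign that turned under some alternatives. Whether glucocorticoids or interleukin-17 had a part in these values was not tested. Of 8 genes that cAMP induces, all 8 were tested, with Nr4a2 and Pde4d higher, at 0.60 and 0.66 (edgeR adjusted p = 0.0136 and 0.000385), and Dusp1 lower, so 3 of 8 were called beside the same 37.1%. Without lone replicate 2 the adjusted p of Nr4a2 was 0.0536. Dusp1 stands on both of these lists, and its log2 fold change of −0.31 (adjusted p = 0.0435) lost its call under 8 of 14 alternatives.

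By Pearson's r of log2 CPM over the 6 libraries, the genes most like Arntl were Zfp251 (r = 0.991), Cad (0.991) and Abat (0.989), and those most like Dbp were AK157302 (0.998), Daam2 (0.996) and Cish (0.995). Of the 9690 genes compared, 10.7% had an r above 0.9 with Dbp and 0.949% with Arntl. These 6 points share the division into groups, so the values describe likeness in these libraries only. Pearson's r does not measure the size of a change. AK157302 had a log2 fold change of 0.13 that did not pass (edgeR adjusted p = 0.231). Daam2 was at 0.98 and Cish at 2.63, beside 1.06 for Dbp.

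The libraries held between 12050529 and 13209581 counts, and 3 counts corresponded to between 0.223 and 0.254 CPM. This floor covers counting error only. No library was a copy of another, as the chi-square statistic per gene was at least 6.07 within a group, where counting noise gives about 1. Among marker genes, all 8 fibroblast markers were tested, with 6 lower and 1 higher, beside 20% lower and 17.1% higher of all genes tested. The same background shares apply to the other markers below. The summed level of the fibroblast markers was between 31341 and 33178 CPM alone and between 14881 and 16593 CPM with Th17 cells. The collagen genes Col1a1, from 15087 to 6235 CPM, and Col1a2, from 12474 to 4626 CPM, made up this difference, while Dcn rose from 505 to 1429 CPM and Postn was at 1948 and 1899 CPM. Of 8 macrophage markers the 4 tested were all lower, with a sum of 45.1 to 47.5 CPM alone and 8.15 to 10.2 CPM with Th17 cells, and Adgre1 had 0 counts in each cocultured library. Of 12 T cell and Th17 markers only Trac and Lck were tested, with Lck lower and a sum of 5.36 to 8.54 CPM alone and 4.64 to 5.51 CPM with Th17 cells. Cd3d, Cd2, Il17a, Il17f and Ccr6 were at 0 in all libraries. Emcn, an endothelial marker, was too. Of 6 epithelial and 5 endothelial markers, 2 of each were tested and 1 of each was lower, with sums of 3.47 to 4.59 and 6.48 to 7.28 CPM alone and 1.42 to 1.52 and 1.29 to 1.56 CPM with Th17 cells. These marker levels differed between the same groups that the clock genes were compared in, and their part in the clock results was not tested.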

How the data were processed

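Per the study's methods, reads were quality-filtered by Seqtk and placed on the genome by HISAT2 2.0.4, and the authors took fragment counts per gene from StringTie 1.3.3b, and the submitters' processing notes name mm10. The deposited table holds raw counts and, beside them, FPKM values per gene and library, scaled by the authors to gene length and library total. Use of strand and treatment of shared fragments were not stated. GENCODE M21 (GRCm38) holds 34267 of the identifiers, 99.9% at overlapping positions.

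Groups came from sample titles and columns from descriptions. Counts were tested in R 4.3.3 with edgeR 4.0.16 (filterByExpr with minimum count 10, TMM, glmQLFit, glmQLFTest), called at an adjusted p of 0.05. SE is the absolute log2 fold change divided by the square root of F. Genes and lists were chosen with earlier results of these data known. All 10 clock genes are named, list genes where they passed or define a list, overlapping genes, and the 3 genes most alike Arntl and Dbp (mean of at least 100 counts, log2 CPM with prior count 2, on no list). Of list symbols, 1 lay on several rows, and the row with most counts was used. Alternatives were other scalings and filters, DESeq2 1.42.0, limma 3.58.1 on log2(FPKM + 1), leaving out each library, a replicate block and glmTreat. Some listed genes enter the counts but are not reported here. Tests were checked on simulated counts. Motifs were searched with Python 3.11.15.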

Additional observations from a re-analysis of the deposited data

How the results depend on the processing

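Nr1d1, Nr1d2 and Dbp kept their direction and their call under 14 alternatives, with log2 fold changes from 1.37 to 1.59, 0.69 to 0.89 and 0.53 to 1.17, the lowest for Dbp with limma on log2(FPKM + 1). Arntl, Per2 and Tef kept their direction and stayed without a call. The number of clock genes that fell was 0 rather than 1 with DESeq2, with upper quartile or relative log expression factors, with library size only, at least 10 counts in every library and limma, and 0 to 1 when 1 library was left out, because Cry1 had adjusted p from 0.02 to 0.195. Clock genes past the limit of 2-fold numbered 1 rather than 2 with limma and with glmTreat, and 1 to 2 when 1 library was left out. The median of the 9 genes other than Arntl was 0.41 with library size only, 0.15 with limma and 0.28 to 0.37 without 1 library, and the difference of Arntl from it was 0.024 with limma. Other clock genes that rose numbered 1 to 2 without 1 library. Per1 was at 0.032 with library size only, 0.021 with limma and −0.136 to 0.070 without 1 library. Without 1 library, Arntl2 was at −0.035 to 0.287 (lowest without cocultured replicate 3) and Rora at −0.001 to 0.527 (lowest without lone replicate 2). Fkbp5 was at 0.046 with library size only, 0.031 with limma and −0.108 to 0.032 without 1 library, and Tsc22d3 at 0.024, 0.017 and −0.116 to 0.010. Glucocorticoid genes that fell numbered 0 with library size only, limma and the replicate block, and 0 to 2 without 1 library. For cAMP genes that fell the numbers were 0, 0, 0 and 0 to 1, and for cAMP genes that rose 1 to 3 without 1 library. The cause of these differences between settings was not tested. Library size only moved the median of all genes from 0.004 to 0.067 on the log2 scale. It moved the higher calls over all genes from 2244 to 2911 and the lower from 2612 to 2280.

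No pairing of libraries by replicate number was detected. The deviations of same-numbered libraries had correlations from −0.026 to 0.016 over genes, and not every library correlated best with its own number. With 3 libraries per group this cannot show that the cultures were unpaired. With the replicate block, 4 clock genes rose and 1 fell as before, and calls over all genes moved from 4856 to 4513. Npas2 had no value with at least 10 counts in every library. Counts limit Per2, Per3, Dbp, Npas2 and Ciart most.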
